A study of Homo sapiens with 14 samples.

Results

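The transcripts described here are those of 10 snoRNA host genes, GAS5, SNHG1, SNHG3, SNHG5, SNHG6, SNHG7, SNHG8, SNHG12, SNHG15 and SNHG16, out of 22410 genes analysed. The 10 names were selected on measured values, with changes between the groups of these data in view, and each gene's transcript was chosen by the highest mean level over all 14 libraries among its RefSeq transcripts of at least 200 nt. All 10 passed the filter on low counts, as did 16418 of the 22410 genes. The 10 genes had 18 transcripts in the table, of which the shortest had 274 nt and 0 lay under the size limit. Because the transcript choice used the mean level, the levels of the hosts are given as a description. The lower levels of SNHG3 and SNHG12 in one comparison (SA2Q against ctrl) were known when the set was drawn, and are not independent support for it. Counts of called hosts in the other comparisons are not independent support either, because changes between the groups were in view.

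Polyadenylated RNA was sequenced from 293 Flip-In T-REx cells, derived from human embryonic kidney and built to take up a transgene at a fixed genomic site, in a study of off-target editing by SNAP-ADAR enzymes. A SNAP-ADAR fuses the deaminase domain of an adenosine deaminase that acts on RNA to the SNAP tag, a protein that takes up a guide RNA carrying benzylguanine by forming a covalent bond. The 7 groups of 2 libraries were cells with an empty vector (ctrl), with the SNAP-ADAR1Q gene (SA1Q) or the SNAP-ADAR2Q gene (SA2Q) and no guide named in the title, and with guide RNA in 4 lines: SNAP-ADAR1Q (SA1Q+gRNA), SNAP-ADAR2Q (SA2Q+gRNA), SNAP-ADAR1 (SA1+gRNA) and SNAP-ADAR2 (SA2+gRNA). The letter Q marks a glutamine in place of a glutamate in the catalytic domain, known to make the enzyme more active. Each genotype is represented by 1 line, so a difference between lines cannot be told apart from a difference between the cells that founded them, and the vector-only line without guide is the only line without an enzyme. The sources used here do not give the target of the guide, the induction of the transgene or the clonality of the lines. The design text speaks of 2 independent experiments, and the labels do not tie a library to an experiment, so p-values measure the spread between these samples.

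snoRNA host genes carry small nucleolar RNAs in their introns. The snoRNAs are cut out after splicing and guide 2′-O-methylation (box C/D class) or pseudouridylation (box H/ACA class) of ribosomal and spliceosomal RNA. Some hosts encode proteins, while in non-coding hosts, such as those described here, the spliced transcript has little or no protein-coding capacity. Many transcripts of non-coding hosts begin with a terminal oligopyrimidine (TOP) tract, the C followed by pyrimidines that also starts ribosomal protein mRNAs. Many are translated over short reading frames and degraded by nonsense-mediated decay, so that their level depends on both transcription and translation.

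The first bases of the host transcripts are shown because the TOP tract is defined there. Each window holds the 30 bases before and the 30 bases from the annotated first base, taken from RefSeq promoter entries of build GRCh38.p14, with capitals marking the unbroken run of C and T that contains the annotated first base. The windows lie at chr6:85678704-85678763 (minus strand) for SNHG5, chr1:28581844-28581903 (minus) for SNHG12, chr9:136728155-136728214 (minus) for SNHG7, chr4:118278732-118278791 (plus) for SNHG8, chr11:62855856-62855915 (minus) for SNHG1, chr17:76557734-76557793 (plus) for SNHG16 and chr1:28505913-28505972 (plus) for SNHG3.
SNHG5: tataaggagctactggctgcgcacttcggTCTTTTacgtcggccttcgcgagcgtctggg
SNHG12: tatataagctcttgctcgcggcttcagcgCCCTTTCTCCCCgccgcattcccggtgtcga
SNHG7: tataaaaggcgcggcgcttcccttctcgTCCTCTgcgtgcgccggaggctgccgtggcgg
SNHG8: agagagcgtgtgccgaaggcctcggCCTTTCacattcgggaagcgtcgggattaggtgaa
SNHG1: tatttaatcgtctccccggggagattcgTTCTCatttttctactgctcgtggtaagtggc
SNHG16: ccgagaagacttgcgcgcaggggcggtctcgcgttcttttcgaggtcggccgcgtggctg
SNHG3: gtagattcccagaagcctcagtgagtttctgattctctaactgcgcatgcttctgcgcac

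SNHG12 had the longest pyrimidine run across its annotated first base, 12 letters, and SNHG5, SNHG7 and SNHG8 had runs of 6. SNHG1 had a run of 5, and SNHG3 and SNHG16 had a G as the annotated first base and so no run across it. A C at the annotated first base followed by at least 4 more letters that are each C or T, read on the transcript's own strand and searched as the only motif, was found in SNHG5 and SNHG12, 2 of the 8 hosts with an entry. The same motif stood in 4.04% of all 27305 promoter entries, in 5.01% of those of genes tested here and in 64.4% of 59 ribosomal protein genes. With the first C allowed within 5 bases of the annotated start on either side, 5 of the 8 hosts held it (SNHG5, SNHG7, SNHG8, SNHG12 and SNHG16), beside 21.1% of all entries and 78.0% of the ribosomal protein genes. GAS5 has an entry and is counted among the 8 as a host without the motif. Its span from the RefSeq start is 1058 nt longer than the span in the files, so its window was not used. Whether the measured GAS5 transcript begins with the motif was therefore not read. SNHG6 and SNHG15 are named only.

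In hg19 coordinates, GAS5 lies on chromosome 1 (173833039 to 173837125, minus strand), SNHG3 on chromosome 1 (28832455 to 28837404, plus) and SNHG12 on chromosome 1 (28905050 to 28908366, minus). SNHG5 lies on chromosome 6 (86386725 to 86388451, minus), SNHG1 on chromosome 11 (62619460 to 62623360, minus) and SNHG6 on chromosome 8 (67834165 to 67837777, minus). SNHG7 lies on chromosome 9 (139619046 to 139622636, minus), SNHG8 on chromosome 4 (119199917 to 119200978, plus), SNHG15 on chromosome 7 (45022627 to 45026259, minus) and SNHG16 on chromosome 17 (74553846 to 74561430, plus). Their transcripts were short, with a median of 771 nt (472 in SNHG6 to 2538 in SNHG16) against 2922 nt over the genes tested. GC content ran from 42.5% in SNHG6 to 61.9% in SNHG7, with a median of 46.0% against 50.0% over the genes tested.

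The libraries held 43.0 to 130.1 M fragments in all, and each of the 10 hosts held between 666 and 21358 fragments in a library. In SA1+gRNA replicate 2, the library with the highest total, each of the 40542 nonzero counts was even, while elsewhere 47.7% to 48.7% were. ctrl replicate 1 and SA1Q+gRNA replicate 1 stood apart on the first principal component, at -39.7 and -43.9 against 0.3 to 13.7 for the other 12. Leaving both out left 1 library each in ctrl and SA1Q+gRNA. ADAR was at 1090 to 1600 CPM (TMM-scaled counts per M fragments) in the 6 SA1 and SA1Q libraries and at 297 to 340 in the other 8, and ADARB1 was at 940 to 1160 in the 6 SA2 and SA2Q libraries and at 25.5 to 37.2 in the rest. The epithelial and neuronal transcripts known in 293 cells were present in every library (KRT8 at 231 to 349 CPM, NEFL at 101 to 204). The neuronal NEFM was low, at 0.815 to 1.78 CPM, and the endothelial markers PECAM1 and CDH5 did not pass 0.136 CPM. The ribosomal precursor RNA45SN5 had its highest level in SA1Q+gRNA replicate 1 (12000 CPM) and its lowest at 2370 CPM.

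Per kilobase of transcript, SNHG5 was the most abundant host at 268 ± 76 CPM per kb (SD over 14 libraries) and SNHG3 had the lowest mean, 21.4 ± 4.1. Between them stood GAS5 (155 ± 27), SNHG7 (114 ± 16), SNHG15 (78.6 ± 6.3), SNHG1 (77.1 ± 8.6), SNHG6 (49.1 ± 6.7), SNHG8 (46.2 ± 5.9), SNHG16 (43.1 ± 5.2) and SNHG12 (25.2 ± 3.7). The neighbours SNHG15 and SNHG1 in this order, SNHG6, SNHG8 and SNHG16, and SNHG12 and SNHG3, had means closer than the larger of their SDs. These SDs do not take up the pairing of levels within a library, and a paired difference was not tested. The deposited FPKM gave the same order. SNHG15 varied least between libraries, with a highest level 1.3 times its lowest (54.9 to 71.5 CPM), and SNHG5 most, with 2.29 times (82.2 to 188 CPM).

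**Figure D1:**
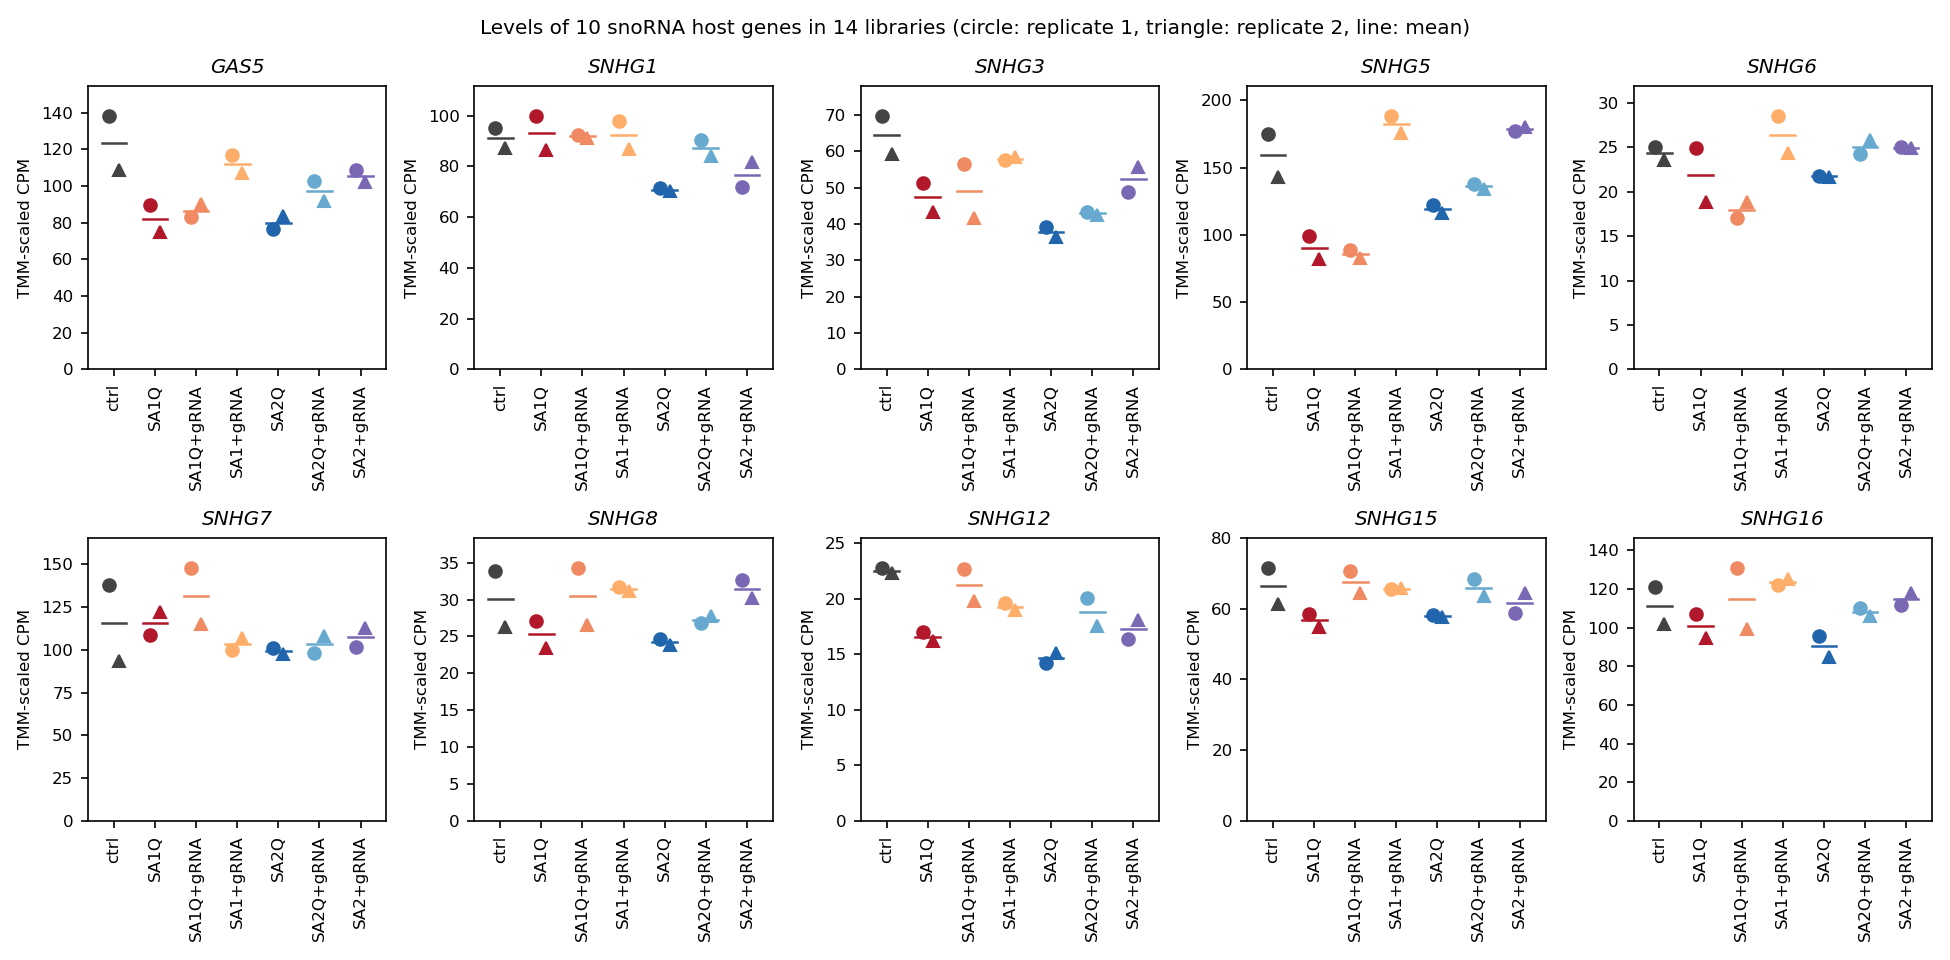
Level of each host in every library, as TMM-scaled counts per M on an axis from 0, by group, with circles for replicate 1, triangles for replicate 2 and a line at the mean. SNHG5 lies between 82.2 and 98.9 in the 4 libraries of the SA1Q line and between 116 and 188 in the other 10.

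In cells with SNAP-ADAR1Q and no guide, SNHG5, GAS5 and SNHG12 were lower than in cells with the empty vector, and no host was higher by the test. Called here means an adjusted p under 0.05 in edgeR's quasi-likelihood test with Benjamini-Hochberg adjustment over all 16418 genes. Of the 10 hosts 3 were called, all lower, where 2.8% of the genes tested were called and 1.74% were called lower. The set was drawn with changes between the groups in view, so this count is not independent support for it. The median change of the 10 hosts was -0.24 on the log2 scale (-0.81 to 0.03), with 9 of 10 below 0, against 0 over all genes tested. In 5 of 10 hosts both SA1Q libraries lay below both ctrl libraries, as they did in 22.9% of the genes tested.

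SNHG5, the host of SNORD50A and SNORD50B, was at 175 and 143 CPM in ctrl and at 98.9 and 82.2 CPM in SA1Q. The groups did not overlap, and the level fell by 0.81 on the log2 scale, 1.76-fold (SE 0.1, adjusted p = 0.002, edgeR). GAS5, a host of box C/D snoRNAs whose transcript is a known substrate of nonsense-mediated decay, was at 138 and 109 CPM in ctrl and at 89.4 and 75.0 CPM in SA1Q. Its groups did not overlap either, and it fell by 0.58, 1.5-fold (SE 0.12, adjusted p = 0.02, edgeR). SNHG12, whose snoRNAs are mostly of the box H/ACA class, was at 22.8 and 22.3 CPM in ctrl and at 17.0 and 16.2 CPM in SA1Q. This was a fall of 0.44 (SE 0.1, adjusted p = 0.038, edgeR), the smallest of the 3. SNHG3, the host of the H/ACA snoRNAs SNORA73A and SNORA73B, was at 69.6 and 59.2 CPM in ctrl and at 51.4 and 43.3 CPM in SA1Q, a change of -0.44 (SE 0.13) that did not pass (adjusted p = 0.081, edgeR). In bulk RNA, fewer cells with a transcript and less of it per cell cannot be told apart. SNHG5 was called in all 11 alternative analyses of this comparison. GAS5 was lost without ctrl replicate 1 (-0.4, adjusted p = 0.096), SA1Q replicate 1 (0.06) or SA1Q replicate 2 (0.16), and SNHG12 without any 1 of the 4 libraries (adjusted p 0.053 to 0.18, edgeR).

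Summed levels of markers of other cell types differed between SA1Q and ctrl, with each sum mostly from 1 gene. The 3 blood cell markers, all above 0 in every library, summed to 130 to 142 CPM in SA1Q and 122 to 132 in SA1Q+gRNA, against 160 to 161 in ctrl and 161 to 181 in the other groups. LCP1 made up most of that sum (110 to 163 CPM over the libraries), and the defining marker PTPRC was at 0.149 to 0.406 CPM. The 5 fibroblast markers summed to 5.6 to 5.72 CPM in SA1Q and 8.96 to 10.8 in ctrl, mostly COL1A1. DCN was at 0 in 3 libraries and LUM in 1. The fibroblast sum also lay below ctrl in SA1+gRNA (6.84 to 6.9), SA2+gRNA (7.18 to 8.23), SA2Q (7.11 to 7.32) and SA2Q+gRNA (7.59 to 7.84). In SA1Q+gRNA it was 5.31 to 9.08 CPM. The other epithelial markers, EPCAM and CDH1, had a higher sum, 98.3 to 102 CPM in SA1Q against 84.6 to 86.4 in ctrl. EPCAM made up most of it (80.7 to 99.1 CPM over the libraries). The epithelial sum was also above ctrl in SA2+gRNA (92.2 to 94.9), SA2Q (95.0 to 98.7) and SA2Q+gRNA (95.2 to 95.3). It overlapped ctrl in SA1+gRNA (83.8 to 97.8) and SA1Q+gRNA (86.0 to 93.6). The part of these transcripts in the host levels was not tested.

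With guide RNA, the SNAP-ADAR1Q line again had less SNHG5 than ctrl. It was the only host called, 1 of 10, where 1.04% of the genes tested were called and 0.621% were called lower. This count, too, is not independent support for the set. SNHG5 was at 89.0 and 82.5 CPM in SA1Q+gRNA, close to the 98.9 and 82.2 of SA1Q, and fell by 0.89 against ctrl, 1.86-fold (SE 0.1, adjusted p = 0.0013, edgeR). Both comparisons share the ctrl libraries. GAS5 stood at 83.0 and 90.2 CPM in SA1Q+gRNA, below both ctrl libraries, with a change of -0.51 (SE 0.12, adjusted p = 0.053, edgeR). The median change of the 10 hosts was -0.04 (-0.89 to 0.18), with 5 above 0 and 5 below, and 4 hosts had both SA1Q+gRNA libraries below both ctrl libraries (16.1% of the genes tested). With the 2 libraries that stood apart left out, 1 library against 1 remained in this comparison, and the change of SNHG3 was -0.51.

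The line with the unmutated SNAP-ADAR1, given guide RNA, had no low SNHG5 value. The levels in SA1+gRNA were 188 and 176 CPM, both above ctrl, a change of 0.2 against ctrl (SE 0.1, adjusted p = 0.52, edgeR). Set directly against SA1+gRNA, SA1Q+gRNA had 2 hosts called of 10, both lower. Of the genes tested 0.962% were called and 0.512% were called lower, and the count of hosts is not independent support for the set. SNHG5 fell by 1.09 on the log2 scale, 2.13-fold (SE 0.1, adjusted p = 0.00029, edgeR), which was the largest host change in any comparison. SNHG6, the host of SNORD87, was at 28.5 and 24.4 CPM in SA1+gRNA and at 17.1 and 18.8 in SA1Q+gRNA. The groups did not overlap, and SNHG6 fell by 0.55, 1.47-fold (SE 0.12, adjusted p = 0.042, edgeR). SNHG5 was called in all 12 alternatives of this comparison, and SNHG6 in 6 of 12. SNHG6 was not called with the 2 libraries that stood apart left out (-0.49, adjusted p = 0.093) or without SA1Q+gRNA replicate 1 (-0.49, 0.25), SA1+gRNA replicate 1 (-0.44, 0.38) or SA1+gRNA replicate 2 (-0.66, 0.12, all edgeR).

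**Figure D2:**
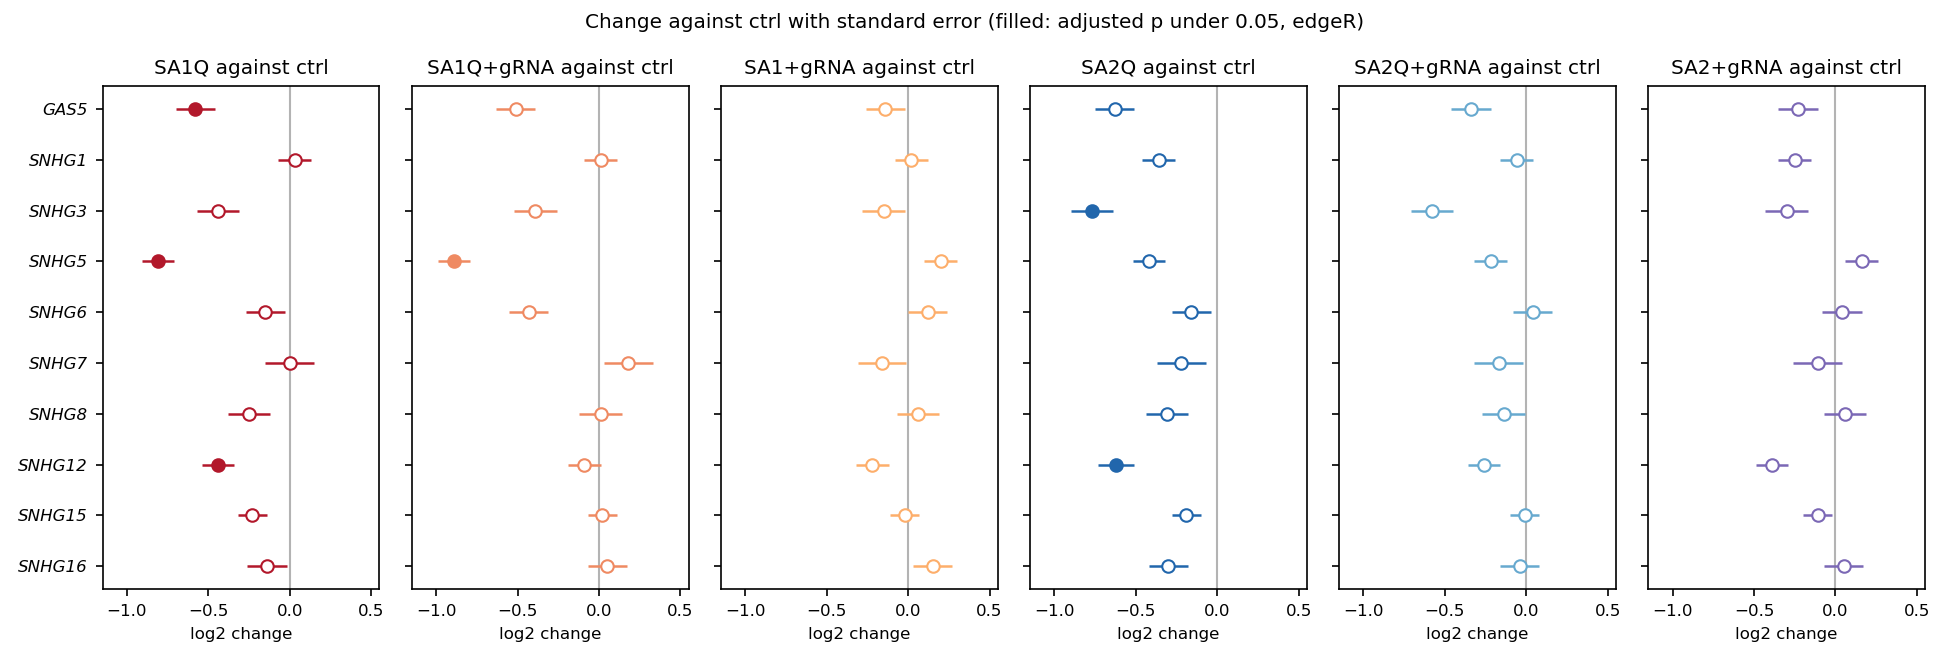
Log2 change of each host against the empty-vector line in the 6 other groups, with bars for 1 standard error and filled points for an adjusted p under 0.05 (edgeR). SNHG5 lies lowest in SA1Q (-0.81) and SA1Q+gRNA (-0.89) and above 0 in SA1+gRNA (0.2) and SA2+gRNA (0.16).

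In cells with SNAP-ADAR2Q and no guide, all 10 hosts had changes below 0 against ctrl, and SNHG3 and SNHG12 were called. Those 2 of 10 compare with 0.0853% of the genes tested called and 0.0305% called lower, a contrast that was in view when the set was drawn. The median was -0.34 (-0.77 to -0.16), against 0 over all genes. In 9 of 10 hosts both SA2Q libraries lay below both ctrl libraries, a pattern found in 18.8% of the genes tested, and SNHG7 was the exception. SNHG3 was at 39.1 and 36.3 CPM in SA2Q, the lowest values among the 14 libraries, against 69.6 and 59.2 in ctrl, and fell by 0.77, 1.71-fold (SE 0.13, adjusted p = 0.042, edgeR). SNHG12 was at 14.2 and 15.1 CPM, also its lowest values, against 22.8 and 22.3 in ctrl, and fell by 0.62 (SE 0.11, adjusted p = 0.041, edgeR). Beside these values, the fibroblast markers summed to 7.11 to 7.32 CPM in SA2Q against 8.96 to 10.8 in ctrl, the other epithelial markers to 95.0 to 98.7 against 84.6 to 86.4, and the blood cell markers to 169 to 180 against 160 to 161. Their part in the host levels was not tested. GAS5 was at 76.4 and 83.4 CPM, a change of -0.63 (SE 0.12) that did not pass (adjusted p = 0.064, edgeR). Without ctrl replicate 1, neither host was called (SNHG3 -0.65, adjusted p = 0.094, and SNHG12 -0.6, 0.088). The same held without SA2Q replicate 1 (adjusted p = 0.32 and 0.57) or SA2Q replicate 2 (0.62 and 0.46, all edgeR), and SNHG12 was not called without ctrl replicate 2 (0.072).

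**Figure D3:**
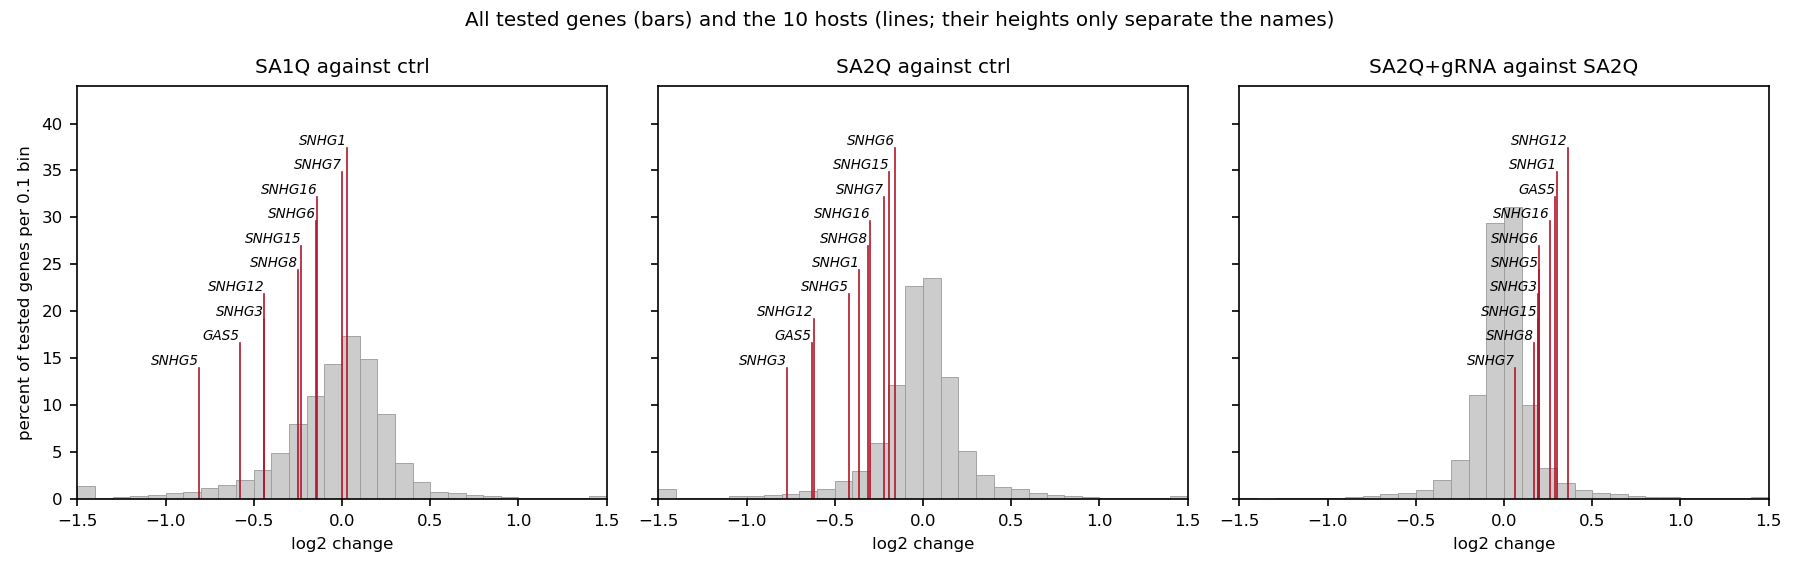
Histograms of the log2 change of all genes tested (percent of genes per 0.1 bin, with values beyond 1.5 placed in the end bins) and vertical lines at the changes of the 10 hosts, whose heights only separate the names. In SA2Q against ctrl all 10 lines are below 0 (-0.77 to -0.16), and in SA2Q+gRNA against SA2Q all 10 are above 0 (0.06 to 0.36).

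When SNAP-ADAR2Q cells had guide RNA, the hosts lay closer to ctrl. SA2Q+gRNA against ctrl had 0 hosts called by edgeR (0.067% of the genes tested), 4 at an unadjusted p under 0.05 and 1 by DESeq2, SNHG3, with a median of -0.15 (-0.58 to 0.04). SNHG3 was at 43.3 and 42.5 CPM in SA2Q+gRNA, still below both ctrl libraries, a change of -0.58 (SE 0.13, adjusted p = 0.14, edgeR). SNHG3 was called there in 4 of 11 alternatives, among them both libraries that stood apart left out (-0.46, adjusted p = 0.02), where 850 genes were called in all. With ctrl replicate 1 alone left out, the only one of the 2 in this comparison, it was not called (-0.46, adjusted p = 0.17), nor without SA2Q+gRNA replicate 1 (0.77) or replicate 2 (0.73, edgeR).

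Set directly against SA2Q, all 10 hosts had higher values with guide than without, and none was called. The changes ran from 0.06 in SNHG7 to 0.36 in SNHG12 (SE 0.1), with a median of 0.2 against 0 over all genes. In 9 of 10 hosts the 2 libraries with guide lay above the 2 without, a pattern of 21.2% of the genes tested. Low SNHG3 and SNHG12 in these SA2Q libraries were known when the set was drawn. The rise from them is therefore not independent support for the set. edgeR called 0 hosts and 0 genes in all (0.0% of the genes tested), with 4 hosts and 291 genes at an unadjusted p under 0.05, and DESeq2 called 0 and 0. SNHG1 was at 71.5 and 70.2 CPM in SA2Q and at 90.4 and 84.1 in SA2Q+gRNA (0.3, SE 0.1, unadjusted p = 0.0072, adjusted p = 1.0, edgeR). SNHG12 was at 14.2 and 15.1 CPM without and 20.1 and 17.6 CPM with guide.

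In the SNAP-ADAR1Q line the guide comparison was mixed. Of the 10 hosts 7 were above 0 and 3 below, with a median of 0.13 (-0.29 in SNHG6 to 0.35 in SNHG12). edgeR called 0 hosts and 0 genes (0.0% of the genes tested), with 3 hosts and 2005 genes at an unadjusted p under 0.05, and DESeq2 called 0 and 0. SNHG12 was at 17.0 and 16.2 CPM without and 22.7 and 19.8 CPM with guide. Without SA1Q+gRNA replicate 2, so that the library that stood apart was the only one with guide, 3 hosts were called, as were 2115 of the 16418 genes. The difference between the guide effects of the 2 lines was tested directly, and edgeR called 0 hosts and 0 genes (0.0% of the genes tested, 2 hosts at an unadjusted p under 0.05, 0 by DESeq2). Averaged over both lines, an analysis added after the data were seen, 9 of 10 hosts were above 0 with guide and 0 were called (5 at an unadjusted p under 0.05). SNHG12 had the largest of these changes, 0.36 (adjusted p = 0.8, edgeR).

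The lines with unmutated deaminase domains had 0 hosts called against ctrl by edgeR. In SA1+gRNA, where 0.0426% of the genes tested were called, the median was 0 (-0.22 to 0.2), with 1 host at an unadjusted p under 0.05 and 0 called by DESeq2. In SA2+gRNA, where 0.104% were called, the median was -0.11 (-0.39 to 0.16), with 3 hosts at an unadjusted p under 0.05 and 0 by DESeq2. The lowest value there was that of SNHG12, at 16.4 and 18.1 CPM against 22.8 and 22.3 in ctrl (-0.39, adjusted p = 0.19, edgeR). SNHG5 was at 177 and 180 CPM in SA2+gRNA, above both ctrl libraries. SA2Q+gRNA against SA2+gRNA also had 0 hosts called (0.0122% of the genes tested, 2 hosts at an unadjusted p under 0.05, 0 by DESeq2). SNHG5 was lower there, at 138 and 134 CPM, by a difference of -0.39 (SE 0.1, adjusted p = 0.33, edgeR) that passed in 2 of 11 alternatives.

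The 2 lines with the Q deaminases were set against each other. Without guide, 0 hosts were called by edgeR (0.14% of the genes tested), 3 had an unadjusted p under 0.05, and DESeq2 called SNHG1 and SNHG5. SNHG5 was at 98.9 and 82.2 CPM in SA1Q and 122 and 116 CPM in SA2Q, a difference of -0.39 (SE 0.1, adjusted p = 0.12, edgeR), and SNHG1 was at 99.7 and 86.4 against 71.5 and 70.2 CPM, a difference of 0.39 (SE 0.1, adjusted p = 0.1). With the 2 libraries that stood apart left out, SNHG1 (adjusted p = 0.013), SNHG3 (0.035) and SNHG5 (0.0081, edgeR) were called, as were 958 of the 16418 genes, against 23 with all libraries. Averaged over guide, 4 libraries against 4 in an analysis added after the data were seen, SNHG5 was 0.53 lower in the SA1Q line (a difference of -0.53, SE 0.07, adjusted p = 0.0019, edgeR). It was the only host called of 10, where 2.75% of the genes tested were called and 1.72% were called lower.

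SNHG5 separated the SNAP-ADAR1Q line from all other groups. Its 4 libraries lay at 82.2 to 98.9 CPM and the other 10 at 116 to 188 CPM, a pattern chosen after the values were seen, which 1.94% of the genes tested shared and no other host did. In GAS5 the same 4 libraries (75.0 to 90.2 CPM) overlapped the other 10 (76.4 to 138), and in SNHG6 they lay at 17.1 to 24.9 against 21.7 to 28.5. The remaining hosts are SNHG1 and SNHG16, which carry box C/D snoRNAs, and SNHG7, SNHG8 and SNHG15, which carry box H/ACA snoRNAs, and none of them was called in the comparisons above by edgeR with TMM scaling, all 14 libraries and no offset. With the length and GC offset SNHG1 was called in SA2Q (adjusted p = 0.0091) and SA2+gRNA (0.04) against ctrl and in SA1Q against SA2Q (0.016), and SNHG7 in SA1Q against SA2Q (0.019, edgeR). SNHG8 ran from 23.5 CPM in SA1Q replicate 2 to 34.3 CPM in SA1Q+gRNA replicate 1, and SNHG16 from 85.1 CPM in SA2Q replicate 2 to 131 CPM in SA1Q+gRNA replicate 1.

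A joint test over the 7 groups called 4 of 10 hosts, where 1.57% of the genes tested were called. They were SNHG5 (adjusted p = 0.00015), GAS5 (0.038), SNHG12 (0.04) and SNHG3 (0.045, edgeR). The joint test includes SA2Q against ctrl, where lower SNHG3 and SNHG12 were known when the set was drawn. The count is therefore not independent support for the set. SNHG5 was called in all 21 alternatives of that test, and the other 3 in 8 to 10 of 21.

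Levels of the hosts were compared across the 14 libraries as a description. Of the 45 pairs of hosts 40 had a Pearson's r of log2 CPM above 0, with a median of 0.52, from -0.5 (SNHG6 and SNHG7) to 0.92 (SNHG8 and SNHG16). The libraries share groups, depth and RNA quality, so these values do not separate hosts from libraries. SNHG7, the host with the highest GC content, was highest in the 2 libraries that stood apart, at 138 CPM in ctrl replicate 1 and 148 CPM in SA1Q+gRNA replicate 1 against 93.5 to 122 CPM in the other 12. In ctrl all 10 hosts were higher in replicate 1 than in replicate 2, by a median of 0.24 on the log2 scale (0.03 to 0.56). Of the 10, 9 were higher in replicate 1 in SA1Q, 8 in SA2Q, 8 in SA1Q+gRNA and 7 in SA2Q+gRNA. In SA1+gRNA 6 were, and in SA2+gRNA 3.

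The genes most like the mean profile of the 10 hosts over the 14 libraries, among 15889 considered, were CHP1 (r = 0.91), ZFAS1, ANAPC1P2 and RPL14 (0.9 each) and CMC2 (0.88). ZFAS1 is itself a non-coding host of box C/D snoRNAs, and RPL14 encodes a protein of the large ribosomal subunit. ZFAS1 was at 84.5 and 65.9 CPM in ctrl, 67.8 and 59.4 in SA1Q and 63.4 and 58.6 in SA2Q. For SNHG5 alone, a search added after its values were seen found TPT1 (r = 0.99) and RPS29, EIF3L, ASNS and COX7A2L (0.97 each). TPT1, whose mRNA has a known TOP start, was at 839 to 902 CPM in the 4 SA1Q-line libraries and at 1090 to 1390 CPM in the other 10, the same division as in SNHG5. TPT1 was picked for its likeness to SNHG5, so this division is a description.

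**Figure D4:**
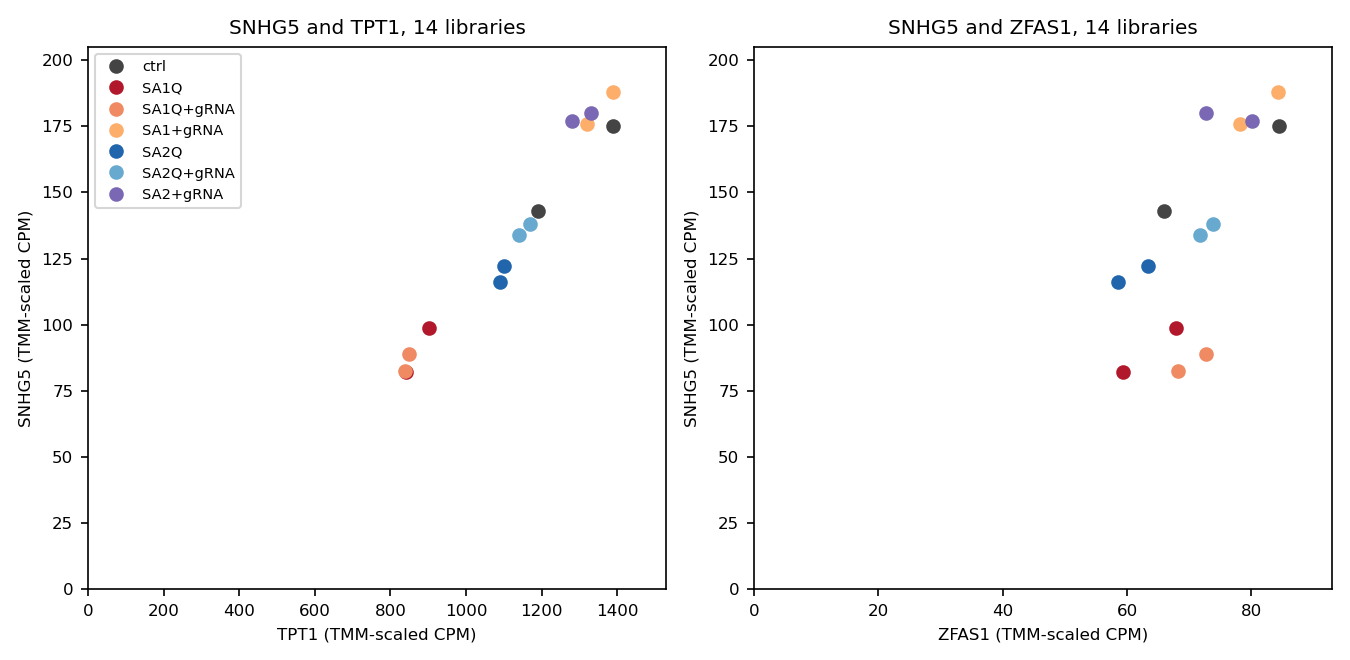
SNHG5 against TPT1 (left) and against ZFAS1 (right) in 14 libraries, in TMM-scaled counts per M on axes from 0, coloured by group. The 4 libraries of the SA1Q line lie at the low end of SNHG5 (82.2 to 98.9) and of TPT1 (839 to 902), while in ZFAS1 they lie among the other libraries (59.4 to 72.7).

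Other non-coding snoRNA hosts were read from a list of 19 names, of which 13 matched the table and 11 were tested. This list and those that follow were chosen with earlier results of these data known, so their counts are a description. In SA1Q against ctrl 0 of the 11 were called higher and 2 lower, with a median of -0.15 (-0.66 to 0). Of all genes tested 2.8% were called there and 1.74% were called lower. EPB41L4A-AS1 fell by 0.66 (SE 0.12, adjusted p = 0.014, edgeR) and SNHG4 by 0.63 (SE 0.12, adjusted p = 0.018, edgeR). EPB41L4A-AS1 was lost without ctrl replicate 1 (adjusted p = 0.061) or either SA1Q library (0.092 and 0.11), and SNHG4 without SA1Q replicate 2 (-0.42, 0.14, edgeR). In SA2Q against ctrl 10 of the 11 were below 0, with a median of -0.3 against 0 over all genes tested. There 0 were called by edgeR (8 at an unadjusted p under 0.05, 2 by DESeq2), beside 0.0853% of all genes tested. In SA2Q+gRNA against SA2Q all 11 were above 0 (0.02 to 0.25), with 0 called by edgeR (1 at an unadjusted p under 0.05, 0 by DESeq2). SNHG29, the most abundant of these hosts, was at 269 to 441 CPM and was not called in SA1Q (-0.33, adjusted p = 0.13) or SA2Q (-0.46, adjusted p = 0.21, edgeR).

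Among 30 protein-coding snoRNA hosts, 5 were called lower and 1 higher in SA1Q against ctrl, with a median of -0.15, where 1.74% of all genes tested were called lower and 2.8% in either direction. The count of lower genes was 1 without SA1Q replicate 1, 2 without SA1Q replicate 2, 3 without ctrl replicate 1 and 12 without ctrl replicate 2. The ribosomal protein genes RPL13A and RPL3 fell by 0.62 and 0.63 (adjusted p = 0.0021 and 0.003), and RPL4, RPS3 and the elongation factor gene EEF2 fell by 0.39, 0.36 and 0.41 (adjusted p = 0.021, 0.036 and 0.036, edgeR). RPL4 and RPS3 were not called without ctrl replicate 1 (adjusted p = 0.06 and 0.13) or without either SA1Q library (0.13 to 0.2), and RPL3 not without SA1Q replicate 1 (0.058, edgeR). The chaperone gene HSPA8 rose by 0.36 (adjusted p = 0.041, edgeR). In SA1Q+gRNA against ctrl 0 were higher and 2 lower, RPL3 (-0.47) and RPL4 (-0.36), where 0.621% of all genes tested were called lower. Against SA1+gRNA 0 were higher and 3 lower, these 2 and RPL13A (-0.47), where 0.512% were called lower. Against ctrl, leaving out ctrl replicate 1 gave 2 higher and 0 lower, and leaving out ctrl replicate 2 gave 1 higher and 6 lower. Against SA1+gRNA, leaving out either SA1+gRNA library gave 0 called, and RPL4 was called in 5 of 12 alternatives. In SA2Q against ctrl 0 of the 30 were called by edgeR (4 at an unadjusted p under 0.05, 0 by DESeq2), with a median of -0.06. Without the 2 libraries that stood apart, SA1Q against ctrl had 4 higher and 5 lower, beside 1218 genes called in all in place of 460. SA1Q+gRNA had 1 higher and 4 lower against ctrl (256 genes in all) and 0 higher and 13 lower against SA1+gRNA (220 genes), and SA2Q against ctrl had 4 called (569 genes).

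Of 18 TOP mRNAs other than ribosomal protein mRNAs, 6 were called lower in SA1Q, 4 in SA1Q+gRNA and 0 in SA2Q against ctrl, and 0 higher, with medians of -0.2, -0.2 and -0.1. Of all genes tested 1.74%, 0.621% and 0.0305% were called lower in these comparisons, so that the 0 in SA2Q stands beside 14 genes called in all and is not read against the 6. DESeq2 called 7, 5 and 0, and 6 had an unadjusted p under 0.05 in SA2Q. The list was chosen with earlier results of these data known, so its counts are not independent support. Against SA1+gRNA, 8 of the 18 were called lower in SA1Q+gRNA and 0 higher, where 0.512% of all genes tested were called lower. Without SA1+gRNA replicate 1 the 8 became 2, and without SA1+gRNA replicate 2 they became 4. The initiation factor genes EIF4B and EIF3L fell in all 3 of these comparisons of the SA1Q line, EIF4B by 0.5, 0.56 and 0.64 and EIF3L by 0.43, 0.44 and 0.45. EIF3F fell by 0.69 in SA1Q and 0.52 in SA1Q+gRNA against ctrl, and HNRNPA1 by 0.37 against SA1+gRNA. Against SA1+gRNA, EIF3L was not called without SA1+gRNA replicate 1 (adjusted p = 0.13), nor HNRNPA1 without either SA1+gRNA library (0.24 and 0.11, edgeR). Against ctrl, EIF3L and EIF3F were not called in SA1Q without either SA1Q library (0.068 to 0.081), nor EIF3F in SA1Q+gRNA without ctrl replicate 1 (0.14) or SA1Q+gRNA replicate 2 (0.085, edgeR). EEF2 stands on this list and on the one of protein-coding hosts. In SA1Q against ctrl the count was 2 without SA1Q replicate 1 and 1 without SA1Q replicate 2.

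Factors that act on host transcripts were read from 3 lists. Of 18 nonsense-mediated decay factors 1 was called higher in SA1Q: MAGOH, a core protein of the exon junction complex (0.36 against ctrl, SE 0.09, adjusted p = 0.043, edgeR), and 0 were called lower, where 2.8% of all genes tested were called. CASC3, another protein of that complex, was the 1 called in SA1Q+gRNA against SA1+gRNA (0.31, SE 0.07, adjusted p = 0.047, edgeR), also higher. MAGOH was not called without ctrl replicate 2 or either SA1Q library (adjusted p 0.11 to 0.22), and CASC3 not without SA1Q+gRNA replicate 1 or either SA1+gRNA library (0.13 to 0.38). In SA2Q against ctrl edgeR called 0 factors (3 at an unadjusted p under 0.05, 0 by DESeq2), with a median of 0.04, and 4 with the 2 libraries that stood apart left out, where 569 genes were called in all. Of 18 proteins of the box C/D and H/ACA particles edgeR called 0 in SA1Q and 0 in SA2Q against ctrl (4 and 0 at an unadjusted p under 0.05, 4 and 0 by DESeq2, which called 1048 and 86 of the 16418 genes), with medians of 0.04 and 0.03. Of 15 regulators of TOP mRNAs and of the kinase complex mTORC1 edgeR called 0 in SA1Q and 0 in SA2Q (4 and 1 at an unadjusted p under 0.05, 0 and 0 by DESeq2), with medians of 0 and 0.01.

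Of the 10 hosts 5 overlap another gene of the table, and without a stated use of strand the fragments of such pairs may not be separable. GAS5-AS1 overlaps GAS5 on the opposite strand by 41 nt, and its level followed that of GAS5 (r = 0.92 over 14 libraries) at a ratio of GAS5 to GAS5-AS1 of 8.78 to 11.1. Against ctrl, GAS5-AS1 changed by -0.52 in SA1Q (SE 0.14, adjusted p = 0.057, edgeR), beside -0.58 for GAS5. MCMDC2 overlaps SNHG6 on the opposite strand by 119 nt (r = 0.82, ratio 3.13 to 4.58). In SA1Q+gRNA against SA1+gRNA, where SNHG6 was called (-0.55), MCMDC2 changed by -0.44 (SE 0.16, adjusted p = 0.18, edgeR). DIPK1B overlaps SNHG7 on the opposite strand by 125 nt, with almost equal levels (98.5 to 132 CPM for DIPK1B, ratio 0.853 to 1.14, r = 0.85).

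SNHG3 lies wholly inside the span of RCC1 on the same strand, 4950 nt, and shares its first base in the files. RCC1 encodes a nucleotide exchange factor of the GTPase Ran. Its transcript used here, like that of TRNAU1AP below, has a non-coding RefSeq record. RCC1 was at 255 to 300 CPM by that transcript and did not follow SNHG3 (r = 0.19). The ratio of SNHG3 to RCC1 was 0.232 in both ctrl libraries and 0.145 and 0.129 in SA2Q, the lowest of the 14. TRNAU1AP overlaps SNHG12 on the opposite strand by 8 nt and was at 25.0 to 29.3 CPM (r = 0.04), with a ratio of SNHG12 to TRNAU1AP of 0.816 and 0.808 in ctrl and 0.533 and 0.523 in SA2Q. RCC1 and TRNAU1AP changed by -0.01 and 0 in SA2Q against ctrl (SE 0.09 each, adjusted p = 0.98 and 1.0, edgeR). The other 5 hosts, SNHG5 among them, overlapped no gene of the table with a transcript of at least 200 nt.

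**Figure D5:**
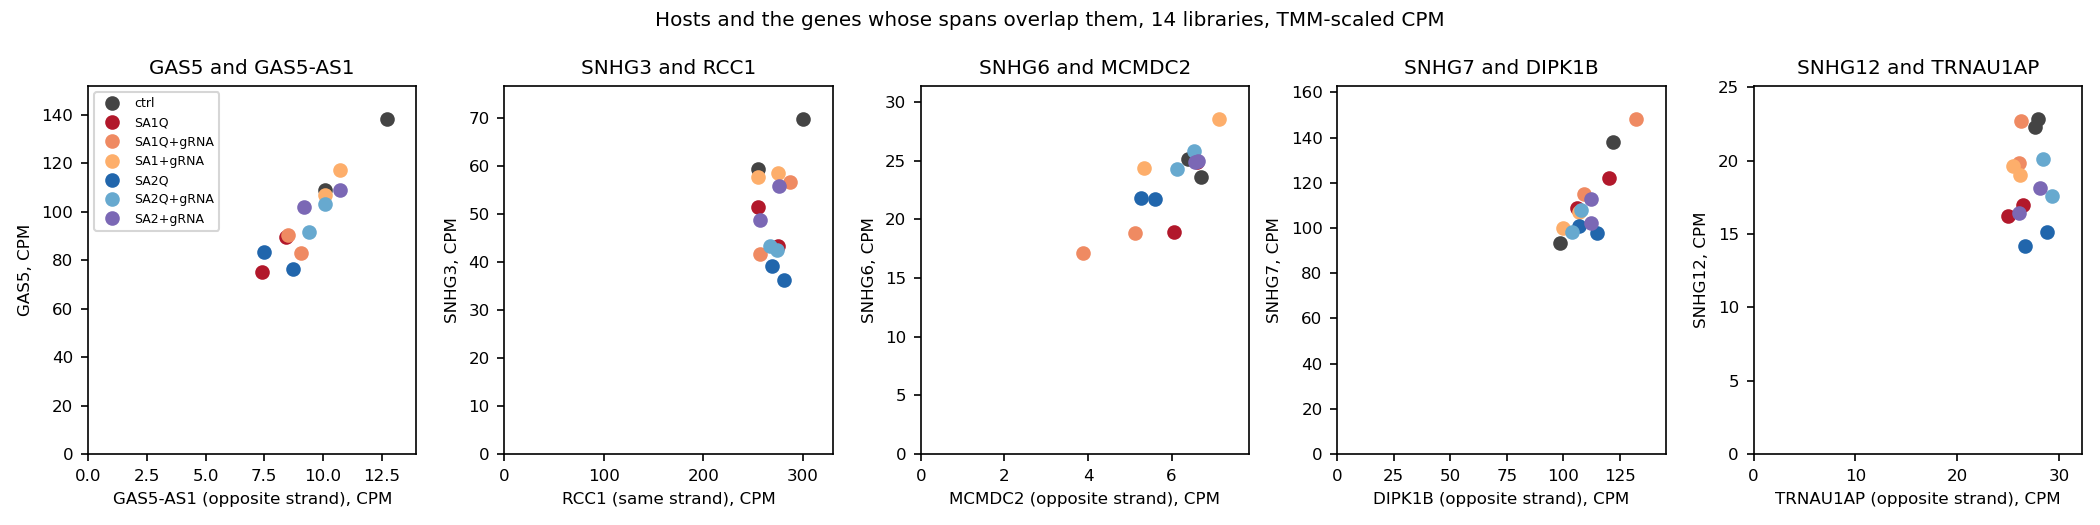
Level of 5 hosts against the gene whose span overlaps each, in TMM-scaled counts per M on axes from 0, for 14 libraries coloured by group. GAS5, SNHG6 and SNHG7 rise with GAS5-AS1, MCMDC2 and DIPK1B (r = 0.92, 0.82 and 0.85), whereas SNHG3 and SNHG12 vary at near-constant RCC1 and TRNAU1AP (r = 0.19 and 0.04).

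The snoRNAs themselves were scarcely sampled by these poly(A)-selected libraries. The table held 32 snoRNA entries inside the spans of 9 hosts, with 10 in GAS5, 8 in SNHG1 and 4 in SNHG12. Their mean levels ran from 0.0188 to 1.95 fragments per M, and their sum reached at most 19.7% of the level of a host (SNHG12). The sum over the 2 entries in SNHG5 was 0.0759 to 0.526 fragments per M, from 0 to 44 fragments an entry and library. These sums include fragments of unspliced host RNA that cannot be told apart from snoRNAs, and no host difference was read from them.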

How the data were processed

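The 10 hosts and all gene lists were chosen with earlier results of these data known. The submitters' processing notes name Trim Galore, STAR 2.4.2a and hg19. Which tool counted fragments, and how it treated strand and repeated matches, is not given in the sources used here. The count column holds whole fragments per RefSeq transcript, unnormalized per the file headers. The deposited signal column is fragments per M (FPM) and served to choose transcripts. The deposited FPKM column, scaled by the authors to transcript size, served to order levels per length. Names came from RefSeq and GENCODE tables: of 45595 accessions 44381 were named by RefSeq and 565 by GENCODE, and entries with no name (0.81% of counts) stayed out.

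The test was that of edgeR 4.0.16 on counts, run in R 4.3.3 (TMM, filterByExpr with minimum count 10, quasi-likelihood test, two-sided) over all 14 libraries without covariates, with 7 residual degrees of freedom and a common biological coefficient of variation of 8.7%. Benjamini-Hochberg adjustment covered all tested genes of a comparison. Alternatives were DESeq2 1.42.0, RLE scaling, no filter, a replicate block, summed transcripts, a length and GC offset, and left-out libraries. The fit was first checked on simulated data. The rule for named genes was every host, up to 4 called genes of each list in a comparison, overlapping genes and the 5 genes most like the hosts' mean profile; EEF2, HSPA8, SNHG29 and the genes most like SNHG5 (RPS29, ASNS and COX7A2L among them) were named beyond it after their values were seen.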

Additional observations from a re-analysis of the deposited data

Results flagged for a closer look

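A pair of hosts differed between the SNAP-ADAR1Q line and the SNAP-ADAR1 line, both with guide RNA, by a direct test of these groups. Against ctrl, SNHG5 was called in SA1Q+gRNA and not in SA1+gRNA. SNHG6 was called in neither (-0.43 and 0.12, adjusted p = 0.1 and 0.73, edgeR). In log2 units SNHG5 differed by -1.09 (SE 0.1, adjusted p = 0.00029, edgeR), with both SA1Q+gRNA libraries (89.0 and 82.5 CPM) below both SA1+gRNA libraries (188 and 176 CPM). SNHG6 differed by -0.55 (SE 0.12, adjusted p = 0.042, edgeR), with 17.1 and 18.8 CPM against 28.5 and 24.4 CPM. The difference in SNHG6 passed in 6 of 12 alternatives. The lines are 1 per genotype, so the deaminase and the line cannot be told apart.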

How the results depend on the processing

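Members were recounted under each alternative. SNHG5 was called against ctrl in 11 of 11 alternatives in SA1Q (-0.95 to -0.66) and in SA1Q+gRNA (-1.04 to -0.74). In SA2Q against ctrl the 2 called hosts became 4 with DESeq2, 1 with the replicate block, 0 with summed transcripts and 5 with the length and GC offset. In SA1Q+gRNA against ctrl the 1 became 3 with DESeq2, 2 without the filter and 4 with the offset. Without both libraries that stood apart, that comparison had 1 library a group, and its host count is not given. In SA2Q+gRNA against ctrl the 0 became 1 with DESeq2, 1 without the filter, 3 with the offset and 1 without both libraries. In SA2+gRNA against ctrl the offset gave 2 in place of 0. In SA1Q against SA2Q the 0 became 2 with DESeq2, 3 with the offset, 3 without both libraries and 1 when averaged over guide. In SA1Q+gRNA against SA1+gRNA the 2 became 1 with the replicate block and 1 with summed transcripts. In SA2Q+gRNA against SA2+gRNA the 0 became 1 with the offset and 1 without both libraries. In the joint test the 4 became 1 with summed transcripts, 8 with the offset and 7 without both libraries. The causes were not tested.

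Leaving out 1 library gave 1 to 3 hosts in SA1Q, 0 to 3 in SA2Q and 1 to 2 in SA1Q+gRNA against ctrl, 0 to 3 in SA1Q+gRNA against SA1Q, 1 to 4 in SA1Q+gRNA against SA1+gRNA and 1 to 5 in the joint test. SNHG16 in SA1Q+gRNA against SA1Q changed from 0.19 to -0.03 without both libraries or without SA1Q+gRNA replicate 1, and to 0.37 without SA1Q+gRNA replicate 2. Over all genes, the 460 calls in SA1Q and 14 in SA2Q against ctrl ran from 38 to 1218 and from 2 to 569 over the alternatives.

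With the replicate block SNHG12 was lost in SA1Q (adjusted p = 0.052) and SA2Q (0.061) against ctrl, and SNHG6 in SA1Q+gRNA against SA1+gRNA (0.063, edgeR), leaving 2, 1 and 1 hosts called. Same-numbered libraries deviated together (r over 0.1) in 2 of 21 pairs of groups (-0.14 to 0.44). The highest r was that of ctrl and SA1Q+gRNA, whose replicate 1 libraries stood apart. These correlations cannot exclude that same-numbered libraries share an experiment. With 2 libraries a group, changes of the size seen in SNHG12 and SNHG6 passed or missed the threshold with 1 library. The averages over guide were chosen after seeing the data.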
